A study of Mus musculus with 6 samples.

Results

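The genes described here encode actin itself, the proteins that build, cut and bundle actin filaments, and the linkers that tie filaments to adhesions and to the plasma membrane. They were found by matching 41 listed symbols to the deposited expression table. All 41 were present among 25124 genes, and 40 passed the filter for testing. The study measured messenger RNA in bone marrow-derived macrophages, cells grown from the femurs and tibias of 8-week-old wild-type C57BL/6 mice over 7 days with 20 ng/ml macrophage colony-stimulating factor (M-CSF). The 3 M0 libraries came from cells kept in 20 ng/ml M-CSF alone. The 3 M2 libraries came from cells that also received 10 ng/ml interleukin-4 (IL-4), a cytokine that drives alternative macrophage activation, for 4 h before harvest. No genetic change separated the groups, and all cells were primary cultures in M-CSF.

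Actin monomers assemble into filaments that grow at a fast barbed end and are disassembled at the other end. Monomer-binding proteins hold or deliver the subunits, the Arp2/3 complex starts branches when WASP or WAVE proteins activate it, and formins and Ena/VASP proteins extend unbranched filaments. In macrophages these machines shape ruffles, phagocytic cups and podosomes, the adhesive structures in which a branched actin core is ringed by talin, vinculin and zyxin.

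Each library corresponded to 16913185 to 19019896 reads in genes. TPM is a transcript level scaled for transcript length and for the library total. All 10 macrophage markers were detected in every library, with summed TPM of 16827 to 19062. Markers of T and NK cells summed to at most 0.315 TPM, those of B cells to at most 1.98 TPM, those of mast cells and basophils to at most 0.130 TPM, those of dendritic cells to at most 1.60 TPM and those of megakaryocytes and platelets to at most 3.95 TPM. The 10 neutrophil markers summed to 43.4 to 51.3 TPM in M0 and 61.0 to 67.9 TPM in M2, where Csf3r rose and the other 5 tested did not pass. The 6 endothelial markers summed to 15.2 to 17.1 TPM in M0 and 65.6 to 69.3 TPM in M2. Among these Vwf and Pecam1 rose, Kdr fell and Tek was at 0 in every library. The part of either list in the results was not tested. M0 replicate 2 stood apart: over genes, the chi-square of its reads against those of the other M0 libraries, divided by the degrees of freedom, was 9.05 and 10.2, against 2.24 between M0 replicates 1 and 3 and 1.52 to 1.70 among M2 libraries. It lay outside the range of the other M0 libraries for 37 of the 41 genes and was the highest of them for 23. The same share over all genes was not computed, so these counts cannot be read as a trait of these genes. The labels do not say whether replicates were separate cultures or animals, so p-values measure the spread between these libraries, which may be technical.

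The actin machinery was lower after IL-4 in most of its parts, with Zyx as the main exception. Of the 40 genes tested, 31 fell, 3 rose (Zyx, Evl and Coro1b) and 6 did not pass (Actg1, Dstn, Gsn, Capg, Actn1 and Myl6). A gene passed at an adjusted p under 0.05 by limma-trend on log2(TPM + 1), adjusted over all 11235 genes tested. Over all of these, 45.3% were called lower in M2 and 17.7% higher. The median log2 fold change was -0.33 for the 40 genes and -0.15 for all genes tested. The 3 M0 and 3 M2 values did not overlap for 30 genes with M2 lower and for 3 with M2 higher. The share of all genes without overlap was not computed, so these counts have no background beside them. Summed over the 41 genes, TPM lay between 22143 and 22491 in M0 and between 16457 and 16659 in M2, which was 25.8% lower. In bulk RNA, fewer cells of a type and less RNA per cell cannot be told apart. Without M0 replicate 2, 31 genes fell and 4 rose, the added gene being Actn1.

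Because the median of all genes was itself below 0 on the TPM scale, every comparison was repeated after each library was scaled to a common median ratio. That moved the median of all genes from -0.15 to -0.00 and the median of the 40 genes from -0.33 to -0.17. On the median-scaled values 21 of the 40 genes fell, 9 rose and 10 did not pass, beside 28.7% of all genes called lower and 28.6% called higher. The same 21 genes fell under both scalings, and Zyx, Evl and Coro1b rose under both. The 6 genes that did not pass on TPM rose after median scaling. The 10 genes that fell on TPM only were Tmsb10, Pfn1, Arpc1b, Arpc3, Arpc5, Wipf1, Diaph1, Lcp1, Myl12a and Msn.

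**Figure D1:**
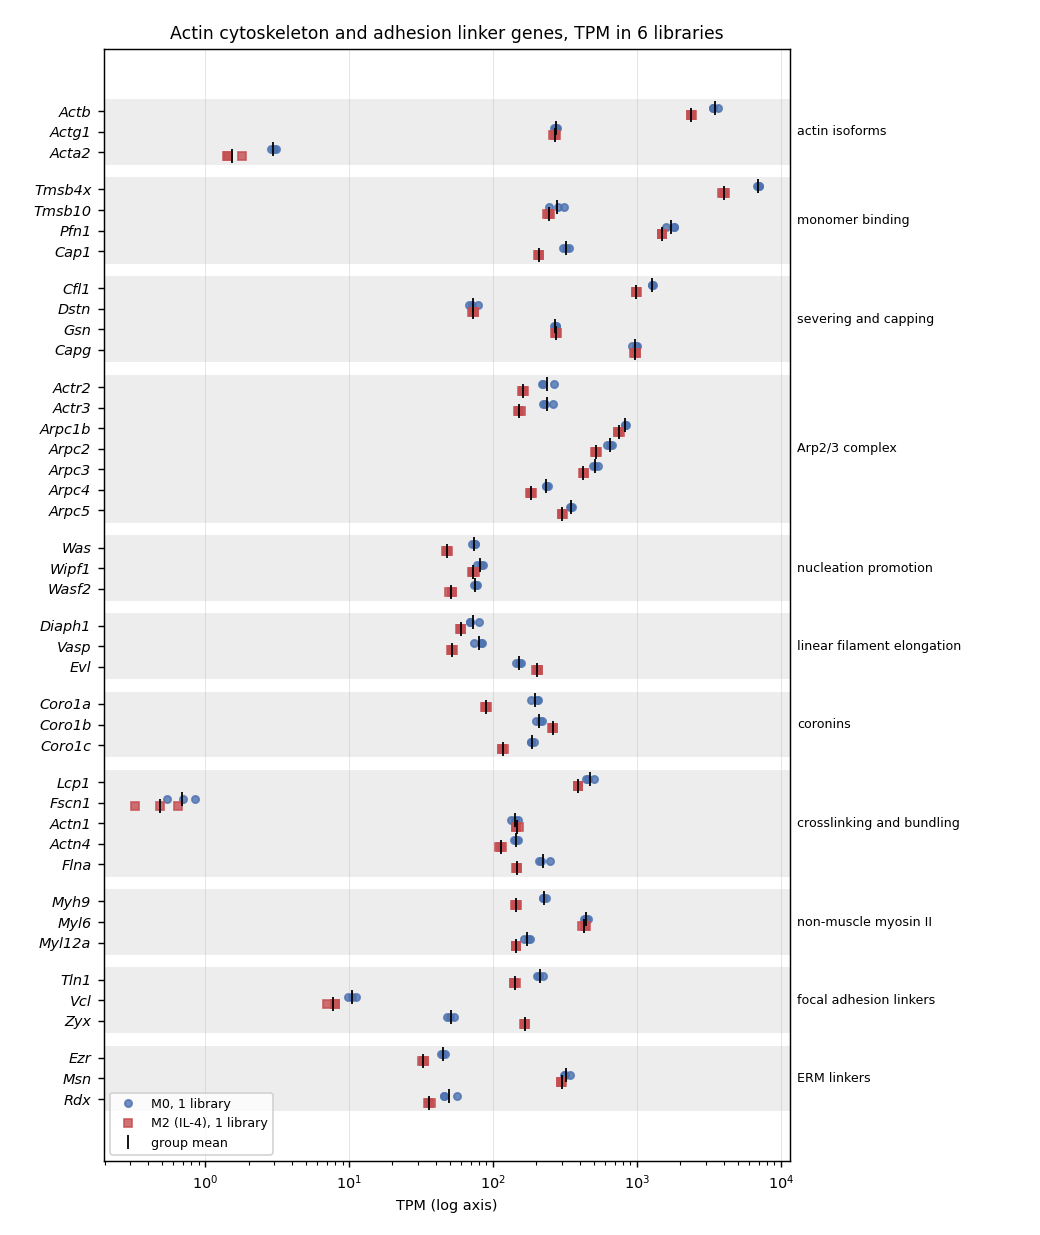
TPM of the 41 genes on a log axis, grouped by role. Blue circles are the 3 M0 libraries, red squares the 3 M2 libraries and black ticks the group means. Zyx, Evl and Coro1b are the genes whose M2 squares all lie above the M0 circles, and Fscn1 lies below 1 TPM in every library.

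**Figure D2:**
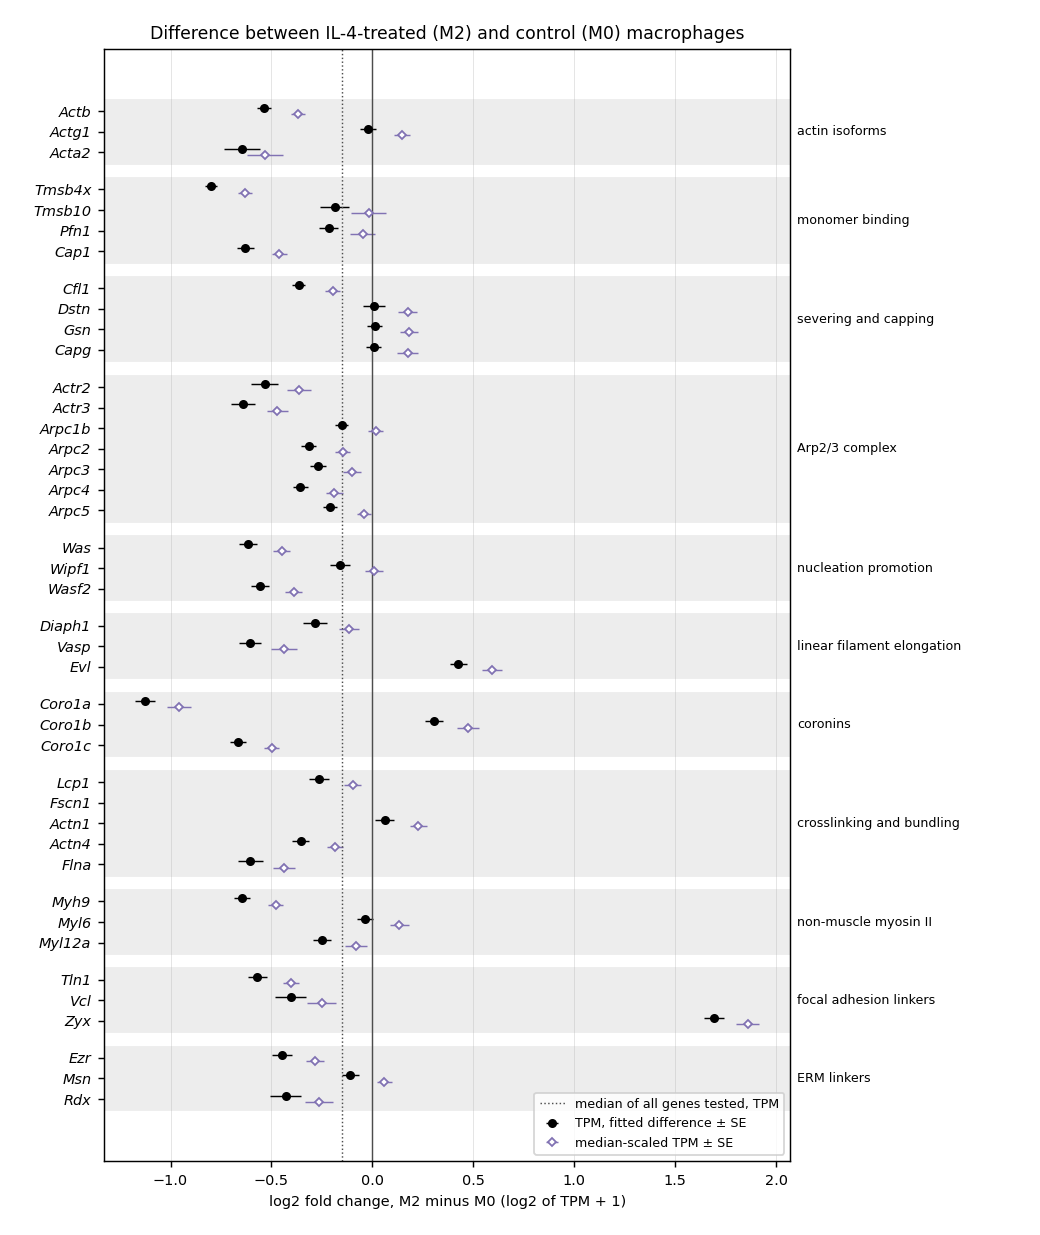
Fitted log2 fold change, M2 minus M0, with its standard error for the 40 genes tested. Black circles are TPM and open diamonds are median-scaled TPM, and the dotted line is the median of all genes tested at -0.15. Zyx lies at 1.69 and Coro1a at -1.13 on TPM, and the open diamonds lie to the right of the black circles.

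Only Zyx and Coro1a differed by at least 1 log2 unit on TPM, and the bases upstream of both are shown for that reason. The 250 bases before the transcript start are from RefSeq on build GRCm38.p6, written on the gene's strand from 5′ to 3′. In Zyx the capitals mark the letters TGANTCA, the AP-1 motif, which begin 121 bases before the start. Coro1a holds none of the motifs searched other than GGGCGG, and nothing is marked in it.
Zyx (chr6:42349578-42349827, plus strand): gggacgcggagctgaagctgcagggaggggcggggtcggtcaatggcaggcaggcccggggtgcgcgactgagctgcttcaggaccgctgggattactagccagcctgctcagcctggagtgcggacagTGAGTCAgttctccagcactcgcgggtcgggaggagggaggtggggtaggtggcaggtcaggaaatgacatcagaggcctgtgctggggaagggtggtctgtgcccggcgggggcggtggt
Coro1a (chr7:126704817-126705066, minus strand): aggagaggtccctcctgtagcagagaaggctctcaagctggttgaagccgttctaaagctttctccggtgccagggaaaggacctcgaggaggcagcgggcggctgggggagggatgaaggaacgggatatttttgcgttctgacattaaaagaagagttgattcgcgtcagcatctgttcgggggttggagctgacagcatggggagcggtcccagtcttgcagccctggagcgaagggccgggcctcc
Actg1 and Vcl are shown because they hold a CArG box, the motif bound by serum response factor, which is known for controlling actin genes. The capitals mark the box, which begins 90 bases before the start in Actg1 and 227 bases before it in Vcl.
Actg1 (chr11:120348496-120348745, minus strand): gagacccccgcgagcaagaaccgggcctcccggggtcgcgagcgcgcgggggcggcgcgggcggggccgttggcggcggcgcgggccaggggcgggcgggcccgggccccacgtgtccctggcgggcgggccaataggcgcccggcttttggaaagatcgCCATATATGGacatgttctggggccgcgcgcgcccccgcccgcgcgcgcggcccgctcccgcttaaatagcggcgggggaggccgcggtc
Vcl (chr14:20929148-20929397, plus strand): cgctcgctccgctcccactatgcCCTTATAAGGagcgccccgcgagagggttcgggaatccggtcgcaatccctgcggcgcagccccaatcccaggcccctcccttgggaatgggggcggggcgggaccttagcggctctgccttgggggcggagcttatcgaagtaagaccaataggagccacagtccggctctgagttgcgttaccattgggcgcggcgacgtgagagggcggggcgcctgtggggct
Of the 41 genes, 38 matched windows in the RefSeq table, 49 windows in all since a gene can have several starts. Actb, Coro1b and Diaph1 had no window and were not searched. The CArG box was searched only as CC and GG around a run of A and T letters, so looser forms were not counted. Each motif was searched on both strands. A CArG box was present in 4 of the 49 windows (Actg1, Arpc4, Myl6 and Vcl) and in 1.47% of all 32851 windows. The letters TGANTCA were present in 4 of them (Actn4, Ezr, Myl12a and Zyx) and in 6.75% of all windows. The STAT-type letters TTCNNNGAA were found upstream of Cap1 alone among these genes, against 7.02% of all windows. A longer STAT6-type motif was not searched, so nothing is said about its presence here. The GC-box letters GGGCGG were present in 31 of the 49 windows and in 32.7% of all windows. On TPM the CArG-box genes Arpc4 and Vcl fell, by 0.36 and 0.40 on the log2 scale, and Actg1 and Myl6 did not pass, at -0.02 and -0.04. A match is a description of the sequence only.

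The actin isoforms diverged. Actb, cytoplasmic beta-actin, had TPM of 3385, 3646 and 3380 in M0 and 2398, 2388 and 2386 in M2. All M2 libraries lay below all M0 libraries, by 31.1% on the means, and the log2 fold change was -0.54 ± 0.03 (SE, limma-trend adjusted p = 4.8e-07). Actg1, cytoplasmic gamma-actin, had overlapping groups on TPM and did not pass, at 272.5 ± 6.6 in M0 and 268.3 ± 5.5 in M2 (SD, n = 3). After median scaling Actb still fell, by 0.37 on the log2 scale, and Actg1 rose by 0.15. Acta2, the smooth muscle actin, was near the detection filter, with TPM of 2.99, 2.86 and 3.09 in M0 and 1.41, 1.80 and 1.43 in M2. It fell by 0.65 on the log2(TPM + 1) scale, which understates the change of so low a gene. The 12 fibroblast and smooth muscle markers, Acta2 and Tagln among them, summed to 17.5 to 17.9 TPM in M0 and 11.6 to 12.9 TPM in M2. The 4 of them that were tested (Col1a1, Col1a2, Tagln and Acta2) all fell, and Myh11 was at most 0.030 TPM in M0 and at 0 in M2. Their part in the Acta2 result was not tested.

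All 4 monomer-binding genes fell on TPM, where 45.3% of all genes were called lower. After median scaling Tmsb4x and Cap1 still fell, whereas Pfn1 and Tmsb10 did not pass, at -0.05 and -0.02. Tmsb4x, which encodes thymosin beta-4, the main buffer of unassembled actin, had the highest TPM of the 41 genes in every library. It measured 6807, 7019 and 7070 TPM in M0 and 3909, 4044 and 4058 TPM in M2. These groups were far apart relative to their spread, with a log2 fold change of -0.80 ± 0.03 (SE, limma-trend adjusted p = 7e-09). Cap1, a cyclase-associated protein that recycles monomers from cofilin, had TPM of 320.3, 336.5 and 306.7 in M0 and 205.0, 209.1 and 207.3 in M2. It fell by 0.63 on the log2 scale. Pfn1, profilin, which delivers actin to growing filament ends, fell by 0.22, from 1737 ± 121 to 1492 ± 8 TPM (SD, n = 3). Tmsb10, a second thymosin, overlapped between groups and only just passed, at -0.19 (limma-trend adjusted p = 0.047). The Tmsb10 call was lost in 5 of the 6 fits that left out a library, with adjusted p of 0.071 to 0.15 in those.

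Among the severing and capping genes only Cfl1 fell. Cfl1, cofilin, which cuts ageing filaments, had TPM of 1269, 1271 and 1292 in M0 and 987, 980 and 1008 in M2. The groups did not overlap, and the log2 fold change was -0.37 ± 0.03 (SE, limma-trend adjusted p = 3.3e-06). Its relative Dstn, destrin, was at 72.5 ± 5.0 TPM in control cells and 72.8 ± 1.5 TPM after IL-4 (SD, n = 3). Gsn, gelsolin, which severs and caps filaments, and Capg, which caps barbed ends, also had overlapping groups, with mean TPM of 270.1 and 272.4 for Gsn and 973 and 976 for Capg. The TPM fold changes of Dstn, Gsn and Capg were all 0.01 on the log2 scale, and after median scaling each rose, by 0.17 to 0.18.

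All 7 Arp2/3 subunit genes among the 41 fell on TPM, where 45.3% of all genes were called lower. The 2 actin-related subunits were the lowest relative to M0. Of the alternative subunits in the wider lists, Arpc5l fell by 0.34, whereas Arpc1a did not pass on TPM, with means of 48.0 and 50.6, and rose by 0.24 after median scaling. Actr3 had TPM of 221.0, 260.9 and 230.7 in M0 and 148.5, 150.5 and 156.3 in M2. It fell by 0.64 on the log2 scale, and M0 replicate 2 was the highest M0 library. Actr2 fell by 0.53, from 235.7 ± 25.8 to 162.0 ± 2.1 TPM (SD, n = 3). Arpc1b, the most abundant subunit transcript per length, changed least, with TPM of 836, 824 and 830 in M0 and 740, 760 and 740 in M2 and a log2 fold change of -0.15 ± 0.03 (SE, limma-trend adjusted p = 0.0020). The other subunits lay between these, with log2 fold changes of -0.36 for Arpc4, -0.32 for Arpc2, -0.27 for Arpc3 and -0.21 for Arpc5. After median scaling Actr3, Actr2, Arpc4 and Arpc2 still fell, whereas Arpc1b, Arpc3 and Arpc5 did not pass, at 0.02, -0.10 and -0.04. Arpc4 shares 1188 bases of its span with Ttll3 on the same strand, so reads could have been counted for either.

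The nucleation promoters Was, Wasf2 and Wipf1 fell on TPM as well. Of the WASP-family genes in the wider lists, Wasl and Washc1 did not pass under either scaling, at -0.12 and -0.07 on TPM. Was, the haematopoietic WASP of podosomes, had TPM of 74.8, 74.9 and 71.2 in M0 and 48.3, 48.0 and 47.0 in M2. This was 35.2% lower on the means, with a log2 fold change of -0.61 ± 0.04 (SE, limma-trend adjusted p = 9e-07). Wasf2, the WAVE2 protein of lamellipodia, fell by 0.56, from 75.4 ± 1.9 to 50.9 ± 1.2 TPM (SD, n = 3). Wipf1, the WASP-interacting protein that stabilises WASP, had TPM of 82.7, 85.3 and 77.1 in M0 and 71.6, 74.6 and 72.7 in M2. It fell by 0.16 on TPM, did not pass after median scaling, and lost its call when M2 replicate 1 (adjusted p = 0.067) or M2 replicate 3 (adjusted p = 0.056) was left out.

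The genes of linear filament growth split. Vasp had TPM of 82.2, 73.3 and 83.2 in M0 and 50.9, 52.7 and 52.0 in M2, and fell by 0.61 on the log2 scale. Evl, an Ena/VASP protein that likewise protects barbed ends from capping, had TPM of 156.0, 144.5 and 151.5 in M0 and 203.8, 199.3 and 204.7 in M2. Every M2 library was above every M0 library for Evl, by 34.5% on the means, with a log2 fold change of 0.43 ± 0.04 (SE, limma-trend adjusted p = 1.0e-05). Evl shares 1724 bases of its span with Degs2 on the opposite strand, whose mean TPM was 27.8 in M0 and 35.1 in M2. Whether the counting used strand is not given in the sources used here. Diaph1, a formin that extends unbranched filaments, fell by 0.28 on TPM and did not pass after median scaling, at -0.12.

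The coronins, which help turn over branched filaments, moved in both directions. Coro1a, the coronin of blood cells, had TPM of 203.9, 183.3 and 202.7 in M0 and 87.6, 89.6 and 91.3 in M2. It had the most negative fold change of the 40 genes, -1.13 ± 0.05 (SE, limma-trend adjusted p = 2.5e-08), and stood 54.5% lower on the means. Its transcript spans chr7:126699774-126704816 on the minus strand in mm10. Coro1c, a more widely expressed coronin, had TPM of 183.8, 192.0 and 182.6 in M0 and 118.9, 115.9 and 115.7 in M2, and fell by 0.67. Coro1b, a further widely expressed coronin, instead had TPM of 219.1, 198.1 and 213.1 in M0 and 261.0, 262.0 and 255.8 in M2, and rose by 0.31 on the log2 scale (limma-trend adjusted p = 0.00019). The 3 coronins were thus close together in M0 and apart in M2, with Coro1b highest and Coro1a lowest in all 3 M2 libraries.

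Of the 4 crosslinking and bundling genes tested 3 fell on TPM, 75% beside 45.3% of all genes. Flna, filamin A, which crosslinks filaments into networks and binds integrins, had TPM of 216.1, 248.1 and 207.5 in M0 and 147.4, 145.3 and 146.6 in M2. The fall was 0.61 on the log2 scale, and M0 replicate 2 was again the highest M0 library. Lcp1, the leukocyte plastin that bundles filaments, had TPM of 460.1, 504.7 and 442.9 in M0 and 388.6, 392.2 and 387.8 in M2, and fell by 0.27 on TPM but did not pass after median scaling. The alpha-actinins differed from each other: Actn4 fell by 0.35, from 144.8 ± 4.8 to 113.0 ± 2.5 TPM, whereas Actn1 was at 141.0 ± 7.1 and 146.9 ± 3.3 TPM with overlapping groups (SD, n = 3). Actn1 rose after median scaling, by 0.23, and on TPM without M0 replicate 2, by 0.10 (limma-trend adjusted p = 0.037). Fscn1, the filopodial bundler fascin, was below the filter, with TPM of 0.540, 0.696 and 0.842 in M0 and 0.488, 0.326 and 0.642 in M2, and was not tested.

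In non-muscle myosin II, the heavy chain and the light chains differed in size of change. Myh9, the heavy chain of the contractile motor, had TPM of 223.3, 233.4 and 221.6 in M0 and 145.6, 144.4 and 142.1 in M2. It fell by 0.65 on the log2 scale, 36.3% lower on the means. Myl6, the essential light chain, had TPM of 441.3, 428.0 and 457.6 in M0 and 434.7, 418.3 and 441.4 in M2, with overlapping groups and no call on TPM. Myl12a, a regulatory light chain, fell by 0.25 on TPM and did not pass after median scaling, at -0.08.

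Zyx moved against the other focal adhesion linkers. It encodes zyxin, a LIM-domain protein of focal adhesions and stress fibres that binds Ena/VASP proteins. Zyx had TPM of 53.8, 47.8 and 50.5 in M0 and 167.5, 163.2 and 166.4 in M2. All M2 libraries lay above the highest M0 library, and the means stood 3.27-fold apart, with a log2 fold change of 1.69 ± 0.05 (SE, limma-trend adjusted p = 1.2e-09). The transcript lies at chr6:42349828-42358562 on the plus strand in mm10 and shares 76 bases of its span with Epha1 on the opposite strand, whose mean TPM was 0.117 in M0 and 0.589 in M2. Tln1, talin, which activates integrins and ties them to actin, had TPM of 207.5, 224.0 and 202.2 in M0 and 139.3, 145.0 and 140.9 in M2, and fell by 0.57. Vcl, vinculin, which reinforces the talin link, was the least abundant of these linkers and fell by 0.40, from 10.5 ± 0.7 to 7.7 ± 0.6 TPM (SD, n = 3).

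The ERM linkers join filaments to membrane proteins, and 3 of 3 fell on TPM, beside 45.3% of all genes. Msn, moesin, the most abundant of them in these cells, had TPM of 318.3, 341.9 and 310.7 in M0 and 297.5, 302.8 and 298.6 in M2. The difference was small, at -0.11 ± 0.04 on the log2 scale (SE, limma-trend adjusted p = 0.047), and the call was lost in 4 of the 6 fits that left out a library. Ezr, ezrin, fell by 0.45, from 45.0 ± 1.5 to 32.7 ± 0.8 TPM, and Rdx, radixin, by 0.43, from 49.2 ± 6.1 to 36.1 ± 0.8 TPM (SD, n = 3). Ezr and Rdx also fell after median scaling, whereas Msn did not pass there.

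Ratios of related genes within a library do not depend on how libraries are scaled to each other, and 9 such ratios were computed. The pairs were chosen after the values had been seen. The Actb to Actg1 ratio was 12.3, 13.1 and 12.7 in M0 and 8.82, 9.12 and 8.81 in M2, so gamma-actin made up more of the cytoplasmic actin message after IL-4. The Coro1b to Coro1a ratio was 1.07, 1.08 and 1.05 in M0 and 2.98, 2.92 and 2.80 in M2, and Evl to Vasp went from 1.90 ± 0.07 to 3.91 ± 0.11 (SD, n = 3). Zyx to Vcl went from 4.86 ± 0.50 to 21.7 ± 1.4, and Tmsb4x to Tmsb10 from 25.2 ± 3.2 to 16.4 ± 0.6 (SD, n = 3). Zyx and Vcl are not of 1 family and were paired as adhesion linkers. Actn1 to Actn4 moved from 0.974 ± 0.017 to 1.30 ± 0.06, Coro1c to Coro1a from 0.950 ± 0.085 to 1.31 ± 0.05, and Arpc1b to Arpc1a from 17.3 ± 0.7 to 14.8 ± 0.5 (SD, n = 3). The ninth pair, Limk1 to Ssh2, which encode a kinase that inactivates cofilin and a phosphatase that activates it, went from 1.54 ± 0.18 to 15.5 ± 1.6 (SD, n = 3). The groups did not overlap for any of the 9 ratios. Since the choice of pairs followed the values, the ratios are a description, with no test.

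**Figure D3:**
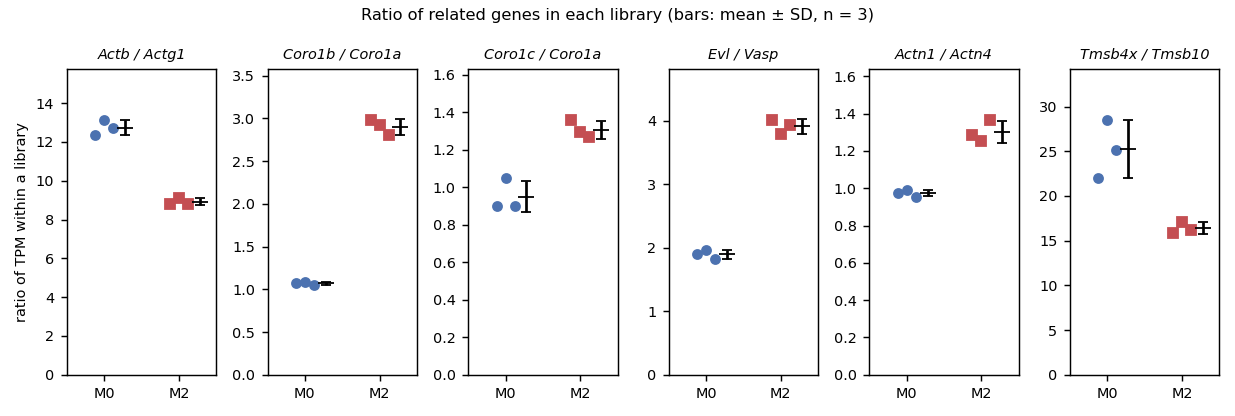
Ratio of TPM between related genes in each library, on axes that start at 0. Blue circles are M0, red squares are M2, and the bars beside them give the mean ± SD of 3 libraries. The Coro1b to Coro1a ratio lies near 1.07 in M0 and 2.90 in M2, and the Actb to Actg1 ratio falls from a mean of 12.7 to 8.91.

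Summed TPM was lower in M2 for 9 of the 11 roles. These sums are on TPM, where the median log2 fold change of all genes tested was itself -0.15. Sums after median scaling were not computed. The 4 monomer-binding genes, led by Tmsb4x, summed to 9302 ± 151 TPM in control cells and 5947 ± 89 TPM after IL-4 (SD, n = 3), a difference of 3356 TPM out of 5763 TPM over all 41 genes. The actin isoforms accounted for 1085 TPM of that difference, the Arp2/3 subunits for 557 TPM and the severing and capping genes for 280 TPM. Relative to their own M0 sums, the monomer-binding genes were 36.1% lower, the actin isoforms 29.0%, the nucleation promoters 25.6%, the coronins 21.4% and the crosslinkers 18.7%. The Arp2/3 subunits were 18.3% lower, myosin II 14.3%, the ERM linkers 11.8% and the severing and capping genes 10.8%. Against these, the focal adhesion linkers summed to 315.1 ± 0.3 TPM in M2 against 272.4 ± 10.2 TPM in M0, where Zyx outweighed Tln1 and Vcl. The linear filament genes were also slightly higher as a sum, with 303.1 ± 5.0 TPM in control cells and 314.0 ± 3.0 TPM after IL-4 (SD, n = 3).

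Changes in these genes moved with transcript length, and so did the deviation of M0 replicate 2. The median log2 fold change of the tested genes described here was -0.22 for the 5 with transcripts up to 1000 bases, -0.21 for the 13 from 1000 to 2000 bases, -0.43 for the 17 from 2000 to 5000 bases and -0.57 for the 5 longer ones. Over all genes tested the same classes had medians of -0.07, -0.11, -0.18 and -0.20. M0 replicate 2 lay -0.08 log2 units from the other M0 libraries in the shortest class of all genes and 0.19 in the longest. The part of length in the results was not tested.

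Further genes of actin regulation were taken from 6 lists of 113 genes outside those above, of which 104 were tested. On TPM 64 fell, 18 rose and 22 did not pass, and after median scaling 45 fell, 26 rose and 33 did not pass. On TPM that was 61.5% lower and 17.3% higher, beside 45.3% and 17.7% of all genes, and after scaling 43.3% lower and 25.0% higher, beside 28.7% and 28.6%. Their median log2 fold change was -0.25 on TPM. The cofilin phosphatase gene Ssh2 fell by 2.13, from 11.7 ± 1.1 to 1.90 ± 0.14 TPM (SD, n = 3). Dock8, an activator of Cdc42, fell by 1.22, and Elmo1, a partner of DOCK proteins in Rac activation, fell by 1.10. Rhoq, the TC10 GTPase, rose by 1.07, from 16.0 ± 1.2 to 34.6 ± 0.3 TPM (SD, n = 3).

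Among 20 genes of the WAVE complex and other nucleation factors, 12 fell and 3 rose on TPM. That was 60% and 15%, beside 45.3% and 17.7% of all genes. After median scaling 11 fell and 4 rose, 55% and 20%, beside 28.7% and 28.6% of all genes. Formins of the FMNL family split here: Fmnl3 fell by 1.38 and Fmnl1 by 1.03, whereas Fmnl2 rose by 1.17, from 3.93 ± 0.63 to 10.1 ± 0.3 TPM (SD, n = 3). Cttn, cortactin, which stabilises branches, rose by 0.85. Of 20 tested tropomyosins, cappers and monomer binders, 12 fell and 4 rose, with Tpm1 at -0.68, Tpm3 at -0.55, Plek, pleckstrin, at 1.42 and the second profilin gene Pfn2 at 0.91. Those counts were 60% and 20% on TPM. After median scaling 9 fell and 4 rose, 45% and 20%. In the list of myosins and their regulators 4 of 9 tested fell and 3 rose, with the unconventional myosins Myo1e at 0.65 and Myo5a at 0.34 and the myosin phosphatase subunits Ppp1cb at -0.27 and Ppp1r12a at -0.26. The share of myosin genes that fell, 44.4%, was near the 45.3% of all genes. After median scaling none of those 9 fell and 5 rose.

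The integrin-side adaptors and podosome genes held large changes in both directions, with 16 of 23 tested falling and 5 rising. That was 69.6% and 21.7% on TPM, beside 45.3% and 17.7% of all genes. After median scaling 15 fell and 6 rose, 65.2% and 26.1%, beside 28.7% and 28.6% of all genes. Among the Src-family kinases of myeloid adhesion, Lyn fell by 1.52, from 127.1 ± 5.5 to 43.6 ± 0.7 TPM, whereas Src itself rose by 2.01, from 3.15 ± 0.22 to 15.6 ± 0.6 TPM (SD, n = 3). Fyb, an adaptor that binds Ena/VASP proteins, fell by 1.28. In the list of serum response factor, its coactivators and smooth muscle-type targets, Mrtfa rose by 0.51 and Tagln2 and Tagln fell by 0.52 and 0.51. Srf did not pass, with 20.5 ± 1.2 TPM in control cells and 19.7 ± 0.9 TPM after IL-4 (SD, n = 3).

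**Figure D4:**
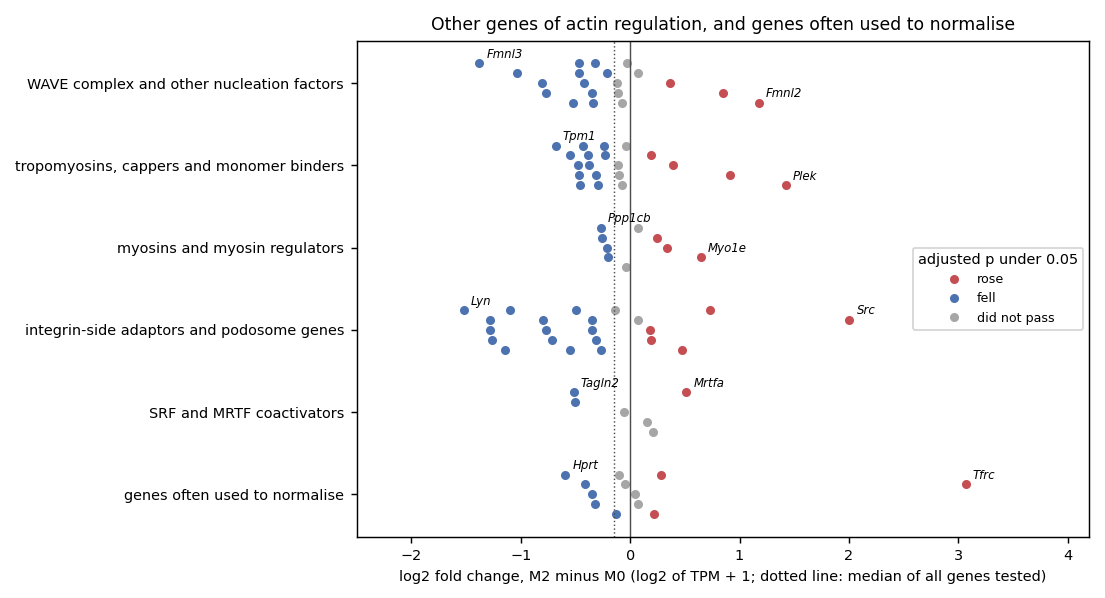
Log2 fold change, M2 minus M0, of tested genes from 5 lists of actin regulators and from the list of genes often used to normalise. Red points rose, blue points fell and grey points did not pass, and the dotted line is the median of all genes tested at -0.15. Most points lie to the left of 0, with Src at 2.01, Plek at 1.42 and Tfrc at 3.07 among the exceptions.

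Actb is often used to normalise expression, so its change was set beside 14 other genes used that way. On TPM 5 of them fell (Hprt by 0.59, Pgk1 by 0.41, Gapdh by 0.35, Ppia by 0.32 and Ywhaz by 0.13), and 3 rose (Tfrc by 3.07, Gusb by 0.28 and Sdha by 0.21). That was 35.7% lower and 21.4% higher, beside 45.3% and 17.7% of all genes. The other 6 did not pass, among them Tbp, Rplp0, B2m and Rpl13a, with log2 fold changes of -0.10, -0.05, 0.04 and 0.07. Actb, at -0.54, thus lay between Hprt and Pgk1 in this order. After median scaling 4 of the 14 fell and 5 rose, 28.6% and 35.7%, beside 28.7% and 28.6% of all genes. Actb fell under both scalings.

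The authors' deposited table of the comparison gave log2 fold changes of 1.87 for Zyx, -0.96 for Coro1a and -0.63 for Tmsb4x. The 10 genes that fell on TPM only had an authors' adjusted p above 0.05, from 0.069 for Diaph1 to 0.95 for Wipf1. The 6 genes that did not pass on TPM were higher in M2 there. Their authors' adjusted p ran from 1.1e-05 for Actn1 to 0.043 for Myl6. The authors' comparison used the same transcript for 30 of the 41 genes. It used another transcript for Actg1, Gsn, Capg and Myl6 among those 6, and for Wipf1 and Myl12a among the 10. In the authors' deposited table Fscn1 had a log2 fold change of -0.29 with an adjusted p of 0.55. Several of these genes have near-identical copies or pseudogenes in the mouse genome, among them the actins, Tmsb4x, Pfn1, Cfl1 and Myl12a, and their values are uncertain to the extent that reads were shared. Other overlaps of transcript spans on opposite strands concern Cap1 with Ppt1 (128 bases), Actn4 with Capn12 (338 bases), Rdx with Gm6981 (1556 bases) and Lcp1 with Mir466f-3 (94418 bases), a microRNA entry at 0 TPM.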

How the data were processed

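Poly(A) RNA from 100 ng of total RNA was sequenced for 3 M0 and 3 M2 libraries, per the labels' protocols. The submitters' processing notes name bcl2fastq, STAR, HOMER 4.11.1, DESeq2 and the mm10 build. Per the file headers, exon reads of RefSeq transcripts were counted by HOMER with 1 transcript per gene, and the authors deposited TPM. The authors' deposited comparison table holds log2-scale values per library, a log2 fold change and p-values. Which transformation gave those log2 values is not given in the sources used here. TPM of the deposited genes add up to between 542749 and 553186 per library, short of a full total. Each table lists 25124 genes, 3 shifted entries were put back in place, and 4515 genes have another transcript in the comparison table. Reads were recovered from TPM and transcript length for the comparison of libraries, and 100.0% of the nonzero values checked were whole within 0.1 read.

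Genes whose TPM reached 1 in 3 or more libraries were tested with limma-trend (robust, two-sided; limma version 3.58.1 in R 4.3.3). The response was log2(TPM + 1), group was the only term, and p-values were adjusted by Benjamini-Hochberg over all genes. The procedure was tested on simulated data. Alternatives were other pseudocounts (0.1 and 5), other filters (none, or a minimum TPM of 5), median-ratio scaling (factors 0.942 to 1.09), the authors' log2-scale values, a replicate block and leaving out each library. Figures were drawn with matplotlib 3.10.9.

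The genes and lists were chosen with earlier results of these data known. Values in every library are given for the 12 genes with the largest change among those that passed, the most abundant gene of each role and any gene below the filter. Up to 4 genes per pathway list are named by size of change, and genes often used to normalise are named whatever their result. Some named items of these lists are not reported here. Genes named outside this rule were chosen after their values were seen.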

Additional observations from a re-analysis of the deposited data

How the results depend on the processing

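The number of genes that rose, 3 on TPM, was 9 after median scaling and 9 with the log2-scale values of the authors. Those that fell, 31 on TPM, numbered 21 and 23 under these settings, 29 with no filter and 30 with a minimum TPM of 5. Both pseudocounts left all calls of the 40 genes in place. Leaving out a library gave 3 to 4 genes that rose and 28 to 31 that fell, and, among the further genes of actin regulation, 18 to 21 that rose and 60 to 69 that fell. Under the replicate block 3 genes rose and 30 fell, Msn losing its call (limma-trend adjusted p = 0.062). Deviations of same-numbered libraries correlated at 0.005, -0.005 and -0.043. The M2 libraries differed little from each other, so this cannot decide whether same-numbered libraries were paired. A planned limma-voom fit on recovered reads was run and then left out, because the deposited unit is TPM and not counts. Like median scaling, it called more genes higher and fewer lower than the fit on TPM.

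Signs that turned belonged to small changes. Under median scaling and with the log2-scale values of the authors, in that order, Actg1 was at 0.146 and 0.143, Myl6 at 0.133 and 0.130, Msn at 0.0589 and 0.0586, Arpc1b at 0.0162 and 0.0172 and Wipf1 at 0.00652 and 0.00581. Over the fits that left out a library, Dstn ranged from -0.0315 to 0.0629, Gsn from -0.00609 to 0.0233 and Capg from -0.0300 to 0.0282, none of them past the threshold. Median scaling divided M0 libraries by 1.05 to 1.09 and M2 libraries by 0.942 to 0.946, which raises log2 fold changes by construction. The cause of the turns in the other fits was not tested.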
